A study of Mus musculus with 22 samples.

Results

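The endoplasmic reticulum (ER) genes examined here were 36 mouse genes for protein folding, protein import and quality control in the ER, listed by name, by a rule that used no measured value, with earlier results of these data known. All 36 were found by symbol in each of the 3 deposited tables, 1 per sorted stage, which listed 37669 (large Pro-B), 37851 (large Pre-B) and 26095 (small Pre-B) genes. By role, 11 were folding chaperones and their partners, 4 protein disulfide isomerases, 3 stress sensors or transcription factors, 7 parts of ER-associated degradation, 7 parts of the translocon and its associated complex, and 4 parts of the signal peptidase complex or the oligosaccharyltransferase.

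Proteins bound for the cell surface or for secretion enter the ER through the Sec61 translocon, lose their signal peptide, receive N-linked glycans and fold with the help of chaperones and disulfide isomerases. Chains that fail to fold are sent back to the cytosol and degraded, and the unfolded protein response, with the sensors IRE1 (Ern1), ATF6 and PERK, raises transcription of folding genes when unfolded chains build up. In the B lineage the ER builds the pre-B cell receptor and later the B cell receptor, BiP (Hspa5) was first described as the protein that holds free immunoglobulin heavy chains, and Xbp1 is best known for the ER expansion of plasma cells.

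The study compared B cell precursors of adult tet-LIN28B mice with those of littermate controls, to learn what the fetal RNA-binding protein LIN28B changes in adult B cell development. The tet-LIN28B mice carried 1 allele of a doxycycline-inducible, Flag-tagged human Lin28b cDNA at the Col1a locus together with the Rosa26 rtTA transactivator. The controls carried 1 rtTA allele without the inducible cDNA, and both genotypes ate chow with 200 mg/kg doxycycline during the 10 days before sorting, so that transactivator and drug were shared by all groups. Since Rosa26 is active in most tissues, induction was not limited to B cells. Bone marrow freed of CD3+, TER119+ and GR1+ cells was sorted into CD93+ IgM- cKIT+ large Pro-B cells (4 control and 5 tet-LIN28B mice), CD93+ IgM- cKIT- large Pre-B cells (3 and 4 mice) and small Pre-B cells (3 and 3 mice), with forward scatter separating large from small cells, and males and females were used interchangeably. The 22 libraries of poly-A RNA came from 15 mice, 7 of which were sorted for both large stages, and other mice gave the small Pre-B libraries.

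Library totals recovered from the tables lay between 13.9 and 23.3 M reads for the large Pro-B libraries, between 19.9 and 30.4 M for those of large Pre-B cells and between 32.0 and 51.0 M at the small Pre-B stage. Reads assigned to mouse Lin28b ranged from 4.63 to 28.8 normalized counts in control and from 41.9 to 232 in tet-LIN28B libraries of the large stages. Controls lack the human cDNA, and in tet-LIN28B libraries its reads were not separated from those of the mouse gene. In small Pre-B cells Lin28b was at 0 in the 3 controls and at 81.9 to 230 normalized counts in the tet-LIN28B libraries. A normalized count is the number of reads of a gene divided by a size factor of its library. Dntt (TdT), an enzyme of Pro-B cells, had control means of 41204, 656 and 47.4 normalized counts at the 3 stages in order of development, and Igll1, a surrogate light chain gene, 25631, 6453 and 215. In bulk RNA of sorted cells, fewer cells of a kind and less RNA per cell cannot be told apart.

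The make-up of the ER genes differed among the sorted stages of control mice, as a description across separately normalized tables and without a test. Levels per gene length are given as reads per kb of exon per M reads of the library. In large Pro-B cells the highest control levels were those of Hspa5 at 674, Hsp90b1 (GRP94, the HSP90 of the ER) at 459, Pdia6 at 429, Pdia3 at 345 and Calr (calreticulin) at 288. In small Pre-B cells the order was led by Herpud1, a membrane organizer of ER-associated degradation, at 625, followed by Hsp90b1 at 317, Hspa5 at 166, Syvn1 (the ubiquitin ligase HRD1) at 144 and Calr at 136. Control levels of 10 of the 11 chaperones and of all 4 disulfide isomerases were lower in small Pre-B than in large Pro-B cells. The ratio of the small Pre-B to the large Pro-B level ran from 0.265 to 0.473 for the isomerases and was 0.106 for the BiP cofactor Sdf2l1, against 9.67 for Dnajb9 (ERdj4), the exception among the chaperones. All 7 genes of ER-associated degradation had ratios above 1, from 1.11 for Derl1 to 7.79 for Derl3. The sensor Ern1 was the lowest of the 36 in every stage, at 0.393, 0.341 and 1.41 in order of development.

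**Figure D1:**
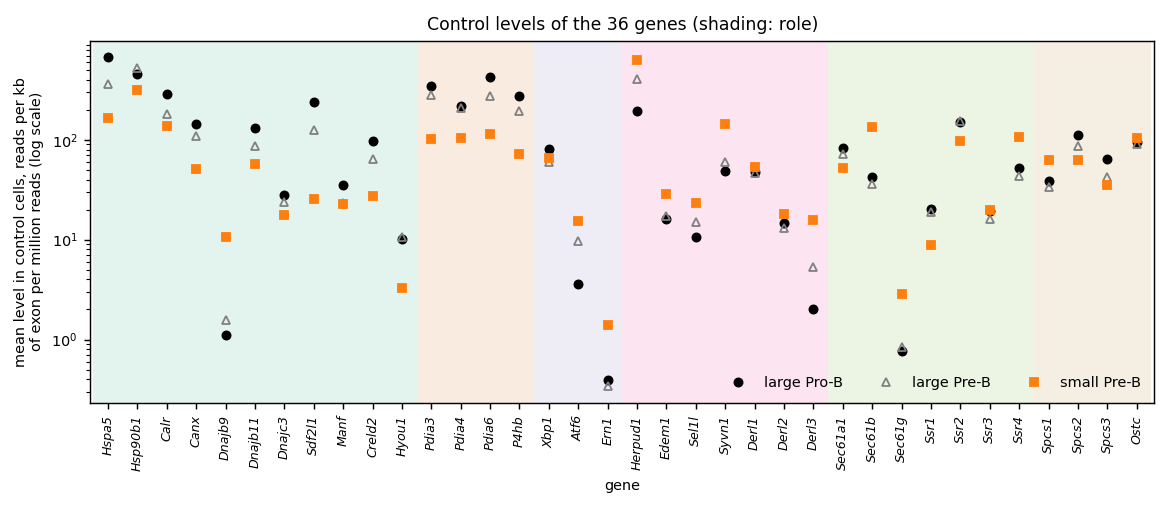
Mean control level of each of the 36 genes (vertical axis, log scale, in reads per kb of exon per M reads) in large Pro-B cells (4 mice, black circles), large Pre-B cells (3 mice, grey triangles) and small Pre-B cells (3 mice, orange squares), with shading by role. The chaperones and disulfide isomerases at the left sit lower in small Pre-B than in large Pro-B cells, other than Dnajb9, and the 7 degradation genes sit higher.

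Summed over the 36 genes, the share of all reads was 0.978% to 1.36% in control and 0.932% to 1.47% in tet-LIN28B large Pro-B cells. The large Pre-B libraries gave 0.920% to 1.05% for controls and 0.847% to 1.15% for tet-LIN28B mice, so that the genotypes overlapped in both large stages. In small Pre-B cells the shares were 0.729%, 0.726% and 0.715% in control replicates 1 to 3 and 0.841%, 0.799% and 0.735% in tet-LIN28B replicates 1 to 3, and the groups did not overlap. Among the 7 mice sorted for both large stages, the same mice held the lowest and the highest shares at both, as read off the values without a test. Control replicate 1 and tet-LIN28B replicates 1 and 2 held the lowest shares of the 7 as large Pro-B cells (0.978%, 0.932% and 0.962%) and again as large Pre-B cells (0.920%, 0.847% and 0.856%). Tet-LIN28B replicate 3 held the highest of these 7 shares in both stages, at 1.41% and 1.15%.

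**Figure D2:**
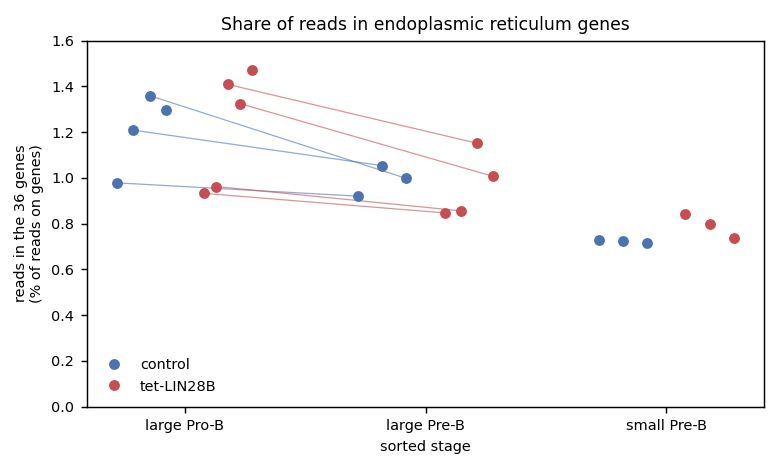
Share of each library's reads that fell in the 36 genes (vertical axis, percent of reads on genes) by sorted stage, with control libraries in blue and tet-LIN28B libraries in red and a line joining the large Pro-B and large Pre-B libraries of a mouse. The genotypes overlap in the large stages, and in small Pre-B cells the 3 tet-LIN28B libraries (0.735% to 0.841%) sit above the 3 controls (0.715% to 0.729%).

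Many ER chaperone promoters carry the ER stress response element (ERSE), which ATF6 and XBP1 are known to bind together with NF-Y. It was searched on both strands as CCAAT and CCACG separated by 9 bases of any kind, in windows from 250 bases before to 50 bases after the RefSeq gene start in GRCm38.p6. A window was matched for 28 of the 36 genes, and none for Manf, Hyou1, Atf6, Derl1, Sec61a1, Ssr2, Spcs3 and Ostc. The ERSE was found in 9 of the 28 (32.1%), against 37 of 27025 genes with a window (0.137%). The shorter ERSE-II, written as ATTGG and CCACG 1 base apart, was found in 2 of the 28 (7.14%), Dnajb11 and Herpud1, against 0.044% of all genes. No window of the 36 genes held both forms. The core of the UPRE, TGACG followed directly by TGG, was in 0 of the 28 and in 0.714% of all genes. The windows before the start of Calr (chr8:84846932-84847181, minus strand) and Hspa5 (chr2:34771840-34772089, plus strand) are shown because both genes rose in small Pre-B cells and hold an ERSE, with its outer pentamers in capitals. The letters run 5′ to 3′ along the gene's strand, and the element of Calr lies in the opposite orientation.
Calr: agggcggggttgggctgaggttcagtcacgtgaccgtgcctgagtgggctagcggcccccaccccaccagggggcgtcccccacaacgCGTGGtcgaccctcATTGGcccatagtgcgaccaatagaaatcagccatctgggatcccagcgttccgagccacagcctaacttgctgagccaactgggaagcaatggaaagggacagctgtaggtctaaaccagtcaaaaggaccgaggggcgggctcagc
Hspa5: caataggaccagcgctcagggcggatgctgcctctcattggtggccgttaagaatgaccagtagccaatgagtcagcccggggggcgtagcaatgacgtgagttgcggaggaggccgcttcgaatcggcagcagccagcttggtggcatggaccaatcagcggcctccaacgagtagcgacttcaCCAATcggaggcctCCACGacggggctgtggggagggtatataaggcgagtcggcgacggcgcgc

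The elements themselves are set out to show how far the spacers differ between genes that rose in small Pre-B cells and genes that did not, each on the strand that reads CCAAT first (ERSE) or ATTGG first (ERSE-II), with the matched pentamers in capitals.
Calr ERSE: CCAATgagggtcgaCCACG
Canx ERSE: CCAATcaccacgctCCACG
Creld2 ERSE: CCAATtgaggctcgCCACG
Derl3 ERSE: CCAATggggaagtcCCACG
Dnajc3 ERSE: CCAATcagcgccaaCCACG
Hsp90b1 ERSE, nearer copy: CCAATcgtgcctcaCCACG
Hsp90b1 ERSE, farther copy: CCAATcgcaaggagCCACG
Hspa5 ERSE: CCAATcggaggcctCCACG
Pdia6 ERSE: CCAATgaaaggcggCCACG
Syvn1 ERSE: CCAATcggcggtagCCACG
Dnajb11 ERSE-II: ATTGGcCCACG
Herpud1 ERSE-II: ATTGGgCCACG

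The ERSE of Hspa5 spans positions 65 to 47 before its start, that of Calr 162 to 144, and the 2 copies of Hsp90b1 positions 212 to 194 and 107 to 89. The ERSE-II of Dnajb11 lies in the transcribed part, 7 to 17 bases after the start, and that of Herpud1 52 to 42 bases before it. A match is a description of letters in a window and does not show that a factor was bound in these cells.

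In large Pro-B cells, none of the 36 ER genes passed the test between the genotypes. The limma test called 0 of 36, beside 0% of the 13776 genes tested. On recovered reads edgeR called 0 of 36, beside 0 of all genes, and DESeq2 0 of 36, beside 3 higher and 1 lower. By limma 0 of 36 had an unadjusted p under 0.05. With pseudocounts of 0.5 and 8 that number was again 0, beside 391 and 408 of all genes. Fold changes were above 0 for 18 of 36, beside 52.2% of all genes, with a median log2 fold change of 0.01 against 0.02 over all genes tested, and no gene had groups that did not overlap, beside 1.3% of all genes (0.697% higher and 0.602% lower). Standard errors on the log2 scale ran from 0.16 to 0.81 with a median of 0.30, so that the test at this stage was wide. The 3 genes with the smallest unadjusted p had adjusted p = 0.999 like all others.

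Those 3 were Atf6, Derl3 (a derlin of the degradation channel) and Sel1l, the partner of HRD1. Atf6 had 706, 575, 331 and 254 normalized counts in control replicates 1 to 4 and 1067, 741, 750, 313 and 850 in tet-LIN28B replicates 1 to 5 (log2 fold change 0.68 ± 0.40, SE). Derl3 had 65.5, 79.5, 27.7 and 17.2 in controls and 86.6, 88.9, 38.4, 77.8 and 84.0 in tet-LIN28B cells (0.84 ± 0.54). Sel1l had 1816, 1880, 975 and 184 in controls and 2030, 1844, 1942, 833 and 1987 in tet-LIN28B cells (0.89 ± 0.60). In all 3 genes control replicate 4 was the lowest of the 9 libraries, and the groups overlapped.

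The main chaperones and Xbp1 also overlapped in large Pro-B cells. Hspa5 had 28546, 45475, 51058 and 56775 normalized counts in controls and 24812, 30920, 43736, 66769 and 47508 in tet-LIN28B cells (log2 fold change -0.13 ± 0.30). Hsp90b1 had 19795, 21831, 26282 and 25186 in controls and 19419, 19184, 36934, 24735 and 36978 in tet-LIN28B cells (0.19 ± 0.24). The tet-LIN28B libraries of both genes ran below and above the controls. Calr had 7989, 14088, 13960 and 9151 in controls and 9529, 7704, 10760, 9452 and 16349 in tet-LIN28B cells (-0.07 ± 0.26). Xbp1 had 2399, 4074, 3780 and 3805 in controls and 2528, 2250, 3000, 5715 and 3656 in tet-LIN28B cells (-0.09 ± 0.28). Tet-LIN28B replicate 4 was the highest of the 9 libraries for 19 of the 36 genes, among them Hspa5 and Xbp1, and replicate 1 the lowest for 11. Without tet-LIN28B replicate 4 the median log2 fold change of the 36 was -0.13, with 0 genes called.

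Large Pre-B cells gave the same picture for these 36 genes. The limma test called 0 of 36, beside 0.0565% of 14155 genes (0.0424% higher and 0.0141% lower), and adjusted p ran from 0.754 to 0.983. By edgeR 0 of 36 were called, beside 0 of all genes, and by DESeq2 0 of 36, beside 61 higher and 15 lower. By limma 0 of 36 had an unadjusted p under 0.05. With pseudocounts of 0.5 and 8 that number was again 0, beside 916 and 955 of all genes. Fold changes were above 0 for 22 of 36, beside 48.2% of all genes, with a median log2 fold change of 0.05 against -0.02 over all genes, and the median turned to -0.05 when libraries were rescaled to 1 total and to -0.06 after quantile normalization. Groups did not overlap for 2 genes, beside 6.46% of all genes. Derl3 was the 1 gene higher in tet-LIN28B cells, beside 3.59% of all genes, and Ssr4 of the translocon-associated complex the 1 lower, beside 2.87%.

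Derl3 had 108, 130 and 90.9 normalized counts in controls and 135, 150, 171 and 165 in tet-LIN28B cells of that stage (0.51 ± 0.29 on the log2 scale, adjusted p = 0.754). Ssr4 had 513, 550 and 543 in controls and 438, 432, 480 and 431 in tet-LIN28B cells (-0.27 ± 0.21, adjusted p = 0.798), and was named after its values were seen. Neither difference passed the test. Sel1l had 1897, 1625 and 1021 in controls and 2003, 2458, 1722 and 1719 in tet-LIN28B cells (0.41 ± 0.24). Creld2, a disulfide isomerase-like protein induced by ER stress, had 1160, 1555 and 1373 in controls and 763, 1177, 1364 and 951 in tet-LIN28B cells (-0.38 ± 0.24). Both overlapped between the genotypes.

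Hspa5 had 19590, 25991 and 18671 normalized counts in control and 16490, 18508, 32271 and 22708 in tet-LIN28B mice (log2 fold change 0.04 ± 0.26), and Hsp90b1 had 26052, 27036 and 17678 against 21872, 21892, 32692 and 24980 (0.11 ± 0.24). Calr had 4803, 6243 and 7308 in controls and 5773, 6252, 6569 and 6515 in tet-LIN28B cells (0.06 ± 0.21). Xbp1 had 1752, 2748 and 2172 in controls and 2003, 2084, 2973 and 2134 in tet-LIN28B cells (0.05 ± 0.23). Controls lay on both sides of the tet-LIN28B libraries for Calr, and tet-LIN28B replicate 3 was the highest of the 7 libraries for Hspa5, Hsp90b1 and Xbp1. That library was the highest for 19 of the 36 genes, and without it the median log2 fold change was -0.07, with 0 genes called.

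In small Pre-B cells 10 of the 36 genes, 9 of them for folding, import or signal peptide removal, were higher in tet-LIN28B than in control mice by 1.2-fold to 1.59-fold. The limma test called 10 of the 36 higher, beside 7.34% of 14664 genes, and 1 lower, beside 7.03%. Over all genes 1076 were higher and 1031 lower, and after rescaling of all libraries to 1 total 829 and 1227, with 7 of the 36 higher and 1 lower. Fold changes of the ER genes were above 0 for 27 of 36, beside 49.7% of all genes, with a median log2 fold change of 0.20 against -0.00. Groups did not overlap for 18 higher genes, beside 17.7% of all genes, and for 1 lower gene, beside 16.2%. By edgeR 9 of the 36 rose and 1 fell, beside 994 higher and 1024 lower over all genes. By DESeq2 14 rose and 1 fell, beside 1357 higher and 1317 lower, so the count over all genes was also larger by DESeq2. The count moved with the libraries left out, as did that over all genes. Without control replicates 1, 2 and 3 in turn, 3, 6 and 5 of the 36 were called higher, beside 497, 685 and 644 of all genes. Without tet-LIN28B replicates 1, 2 and 3 in turn, 7, 9 and 13 were called higher, beside 567, 964 and 938 of all genes.

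**Figure D3:**
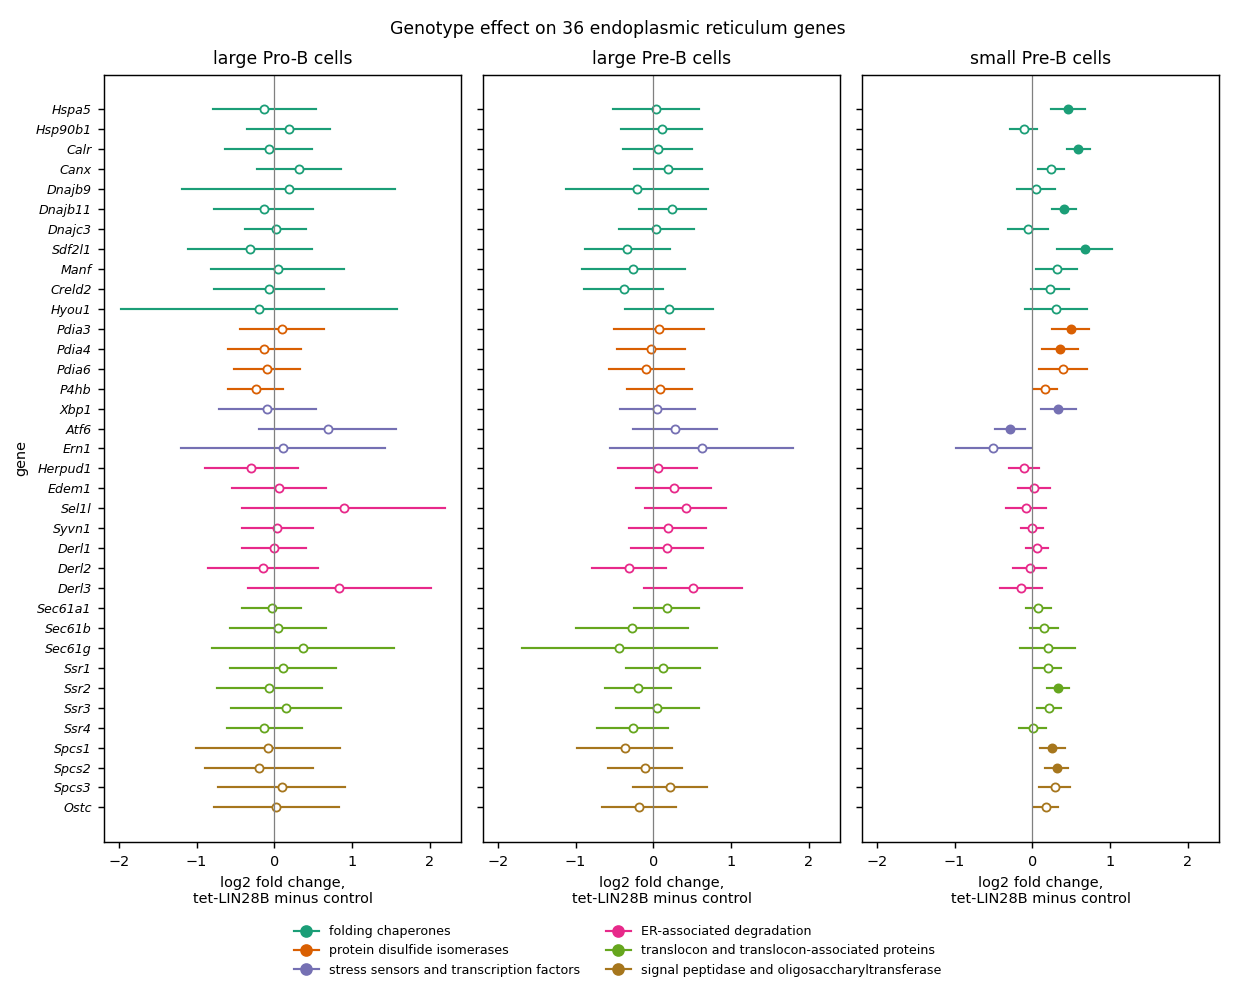
Log2 fold change of each of the 36 genes, tet-LIN28B minus control (horizontal axis), for each sorted stage, with 95% intervals from limma as lines, colours by role and filled points for genes with an adjusted p under 0.05. The intervals are wider in the large stages, where no point is filled, and in small Pre-B cells 10 filled points lie above 0 and 1, Atf6, below.

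Of the 11 chaperones and partners, 4 rose in small Pre-B cells, beside 7.34% of all genes: Calr, Dnajb11, Hspa5 and Sdf2l1. No role was tested against the other genes. Calr, the lectin chaperone of newly glycosylated proteins, had 9948, 10906 and 10075 normalized counts in control replicates 1 to 3 and 16460, 15003 and 15194 in tet-LIN28B replicates 1 to 3. The lowest tet-LIN28B library was far above the highest control, at a log2 fold change of 0.59 ± 0.06 (1.51-fold, adjusted p = 0.000442). Dnajb11 (ERdj3), which hands chains to BiP, had 6085, 6495 and 6821 in controls and 9062, 8389 and 8311 in tet-LIN28B cells (0.41 ± 0.07, 1.33-fold, adjusted p = 0.0039). These 2 genes were called under every alternative run at this stage.

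Hspa5, the central HSP70 of the ER lumen, had 21285, 22034 and 21417 normalized counts in controls and 34635, 29566 and 25277 in tet-LIN28B cells. The groups did not overlap, with tet-LIN28B replicate 1 the highest and replicate 3 the closest to the controls (0.46 ± 0.10, 1.37-fold, adjusted p = 0.0131, and 0.0527 without control replicate 1). Sdf2l1, a cofactor of BiP, had 903, 1003 and 1061 in controls and 2073, 1501 and 1254 in tet-LIN28B cells, the largest fold of the 36 (0.67 ± 0.16, 1.59-fold, adjusted p = 0.0205). Its call was lost without control replicate 1 and without control replicate 2, and its adjusted p reached 0.0836 over the alternatives.

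Hsp90b1, the highest of the 11 listed ER chaperones per length in control small Pre-B cells, was not called. It had 32427, 31124 and 29502 normalized counts in controls and 31818, 28682 and 26001 in tet-LIN28B cells, with overlapping groups (log2 fold change -0.11 ± 0.08, 95% interval -0.28 to 0.06, adjusted p = 0.394). Hsp90b1 holds 2 of the ERSE copies shown above, and Hspa5 and Calr 1 each. Of the 9 genes with an ERSE, Calr and Hspa5 rose and the other 7 did not pass the test, with log2 fold changes from -0.15 for Derl3 to 0.40 for Pdia6. Of the 2 with an ERSE-II, Dnajb11 rose and Herpud1 did not (-0.11 ± 0.09). Of the 17 genes whose window held neither, 6 rose. Of the 8 genes with no window matched 1 rose, Ssr2, and 1 fell, Atf6. Over all genes 7.34% were called higher and 7.03% lower. These small classes were not compared by a test. The remaining chaperones that were not called were Canx (calnexin, 0.24 ± 0.08, adjusted p = 0.0609), Manf (0.32 ± 0.12), Creld2 (0.23 ± 0.11), Hyou1 (GRP170, 0.31 ± 0.18), Dnajb9 (0.05 ± 0.11) and Dnajc3 (the BiP partner p58IPK, -0.05 ± 0.12).

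**Figure D4:**
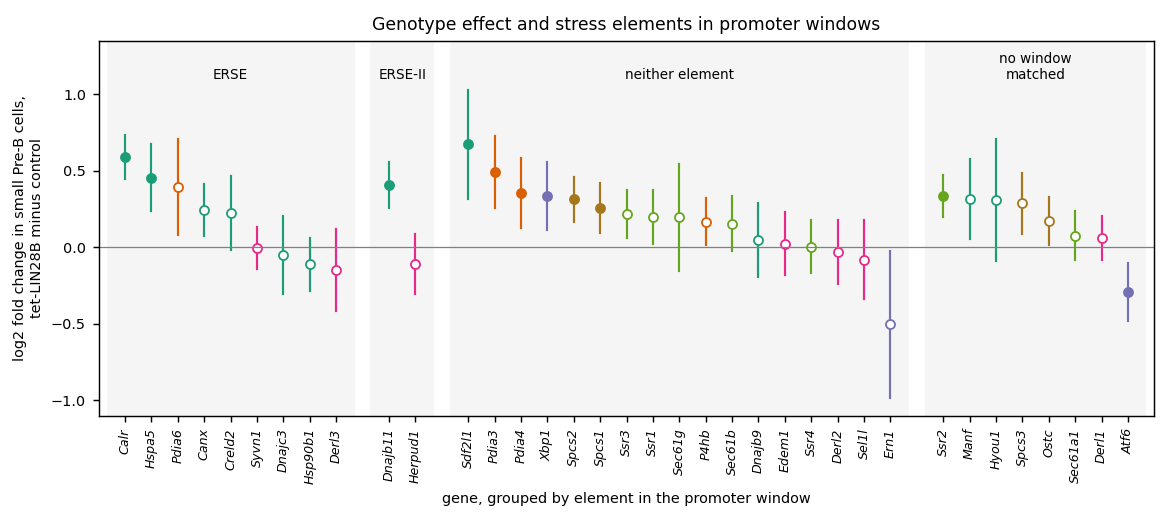
Log2 fold change in small Pre-B cells, tet-LIN28B minus control (vertical axis), with its 95% interval, for the 36 genes grouped by the element found in their promoter window and coloured by role as in the plot of fold changes by stage, with filled points for an adjusted p under 0.05. Genes with an ERSE run from 0.59 for Calr to -0.15 for Derl3, and the highest fold, 0.67 for Sdf2l1, belongs to a gene whose window held neither element.

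All 4 disulfide isomerases had fold changes above 0, beside 49.7% of all genes, and 2 of them rose, beside 7.34% of all genes. Pdia3 (ERp57), which works on glycoproteins together with calreticulin and calnexin, had 9705, 9917 and 9509 normalized counts in controls and 16465, 13360 and 11611 in tet-LIN28B cells (log2 fold change 0.49 ± 0.11, 1.41-fold, adjusted p = 0.0134). Pdia4 (ERp72) had 8714, 8739 and 8482 in controls and 12867, 11400 and 9246 in tet-LIN28B cells (0.36 ± 0.10, adjusted p = 0.0444). In both, control libraries lay close together and tet-LIN28B libraries spread widely, with replicate 1 the highest. The call of Pdia3 was lost without control replicate 1 or 3 (adjusted p up to 0.053), and that of Pdia4 without any one library but tet-LIN28B replicate 3 (adjusted p up to 0.132). Pdia6 (0.40 ± 0.14, adjusted p = 0.0908) overlapped between the groups, and P4hb, the classical isomerase, did not overlap but was not called (0.17 ± 0.07, adjusted p = 0.131).

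The sensors and transcription factors went in different directions. Xbp1 had 5523, 5814 and 5161 normalized counts in controls and 8190, 6178 and 6593 in tet-LIN28B cells (log2 fold change 0.34 ± 0.10, 1.26-fold, adjusted p = 0.0499). Atf6 had 4023, 3739 and 3844 in controls and 3424, 3306 and 2787 in tet-LIN28B cells, and fell by 0.29 on the log2 scale (SE 0.09, adjusted p = 0.0488). Neither pair of groups overlapped, and both calls stood at the threshold: Xbp1 was called under 5 and Atf6 under 6 of 15 alternatives, with adjusted p up to 0.164 and 0.16. Atf6 was not called with any library left out, and Xbp1 only without tet-LIN28B replicate 2. Ern1 had a log2 fold change of -0.50 ± 0.22 (adjusted p = 0.154) with overlapping groups. The values are per gene and do not separate the spliced form of Xbp1 mRNA, which IRE1 makes, from the unspliced form.

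**Figure D5:**
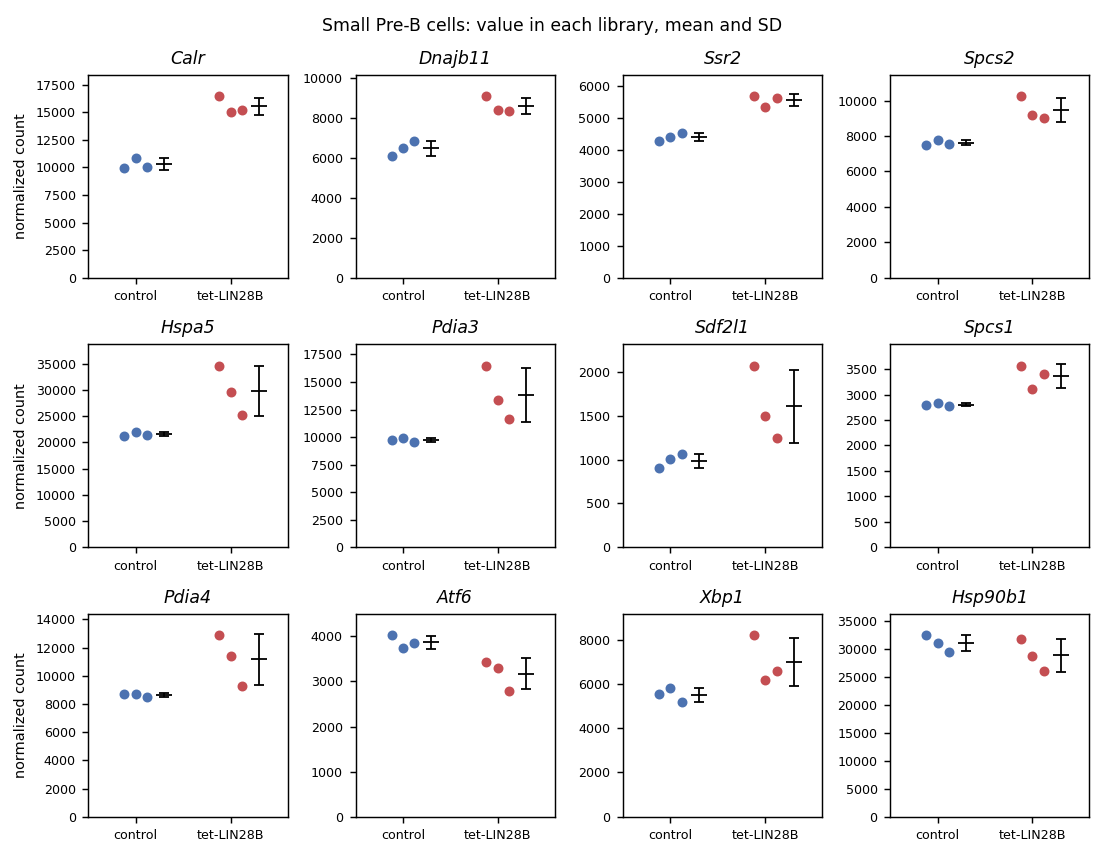
Normalized count (vertical axis, from 0) of the 11 genes called in small Pre-B cells and of Hsp90b1 in the 3 control (blue) and 3 tet-LIN28B (red) libraries, with the mean and SD of each group in black. The groups do not overlap for the 11 called genes, of which Atf6 is lower in tet-LIN28B cells, and they overlap for Hsp90b1.

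Of the 7 genes of ER-associated degradation 0 passed the test in small Pre-B cells, beside 14.4% of all genes called in either direction, so that a count of 0 among so few genes is near the background and does not set them apart from the other roles. Their log2 fold changes ran from -0.15 for Derl3 to 0.06 for Derl1, with a median of -0.03, and their 95% intervals lay between -0.42 and 0.23. Herpud1 had a mean of 42302 ± 1791 normalized counts in controls and 39406 ± 5197 in tet-LIN28B cells (SD, n = 3 each), and Syvn1 18275 ± 1005 and 18194 ± 629 (log2 fold change -0.01, 95% interval -0.14 to 0.13). Sel1l, Derl2 and Edem1, a lectin of the degradation pathway, had log2 fold changes of -0.08, -0.03 and 0.02. Groups overlapped for all 7 genes.

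Import genes had estimated log2 fold changes above 0, at smaller folds, beside 49.7% of all genes above 0. For Ssr4, Sec61a1, Sec61b and Sec61g the limma interval included 0, so a rise was not shown for them. The estimate of Ssr4 was 0.005. Of the 7 genes of the translocon and its associated complex 1 rose, Ssr2, beside 7.34% of all genes called higher. Ssr2 had 4291, 4409 and 4521 normalized counts in controls and 5682, 5342 and 5644 in tet-LIN28B cells (log2 fold change 0.33 ± 0.06, 1.26-fold, adjusted p = 0.00709). Its groups lay apart, and it was called under all 15 alternatives. Ssr3 (0.22 ± 0.07, adjusted p = 0.0705) and Ssr1 (0.20 ± 0.08, adjusted p = 0.13) did not overlap and were not called, and Ssr4 overlapped (0.00 ± 0.08). The channel subunits Sec61a1, Sec61b and Sec61g had 0.08 ± 0.07, 0.15 ± 0.08 and 0.20 ± 0.16.

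Of the signal peptidase subunits Spcs1 and Spcs2 rose, beside 7.34% of all genes called higher. Spcs2 had 7505, 7785 and 7562 normalized counts in controls and 10240, 9166 and 9023 in tet-LIN28B cells (log2 fold change 0.31 ± 0.07, 1.24-fold, adjusted p = 0.0124). Spcs1 had 2805, 2831 and 2774 in controls and 3565, 3103 and 3404 in tet-LIN28B cells (0.26 ± 0.07, 1.2-fold, adjusted p = 0.0421). In both, every tet-LIN28B library was above every control. Spcs2 lost its call without control replicate 1 or 3 (adjusted p up to 0.0521), and Spcs1 without any library but tet-LIN28B replicate 2 (adjusted p up to 0.142). Spcs3 was just outside the threshold (0.29 ± 0.09, adjusted p = 0.0577), and Ostc of the oligosaccharyltransferase had 0.17 ± 0.07 (adjusted p = 0.133).

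The difference between stages in the genotype effect was tested itself, over 11830 genes measured in all 3 stages, and called 0 of the 36 genes in each of 3 contrasts. Over all genes 0.0338% were called for small Pre-B minus large Pro-B, 0.0169% for small Pre-B minus large Pre-B and 0% for large Pre-B minus large Pro-B. For small Pre-B minus large Pro-B, the difference of log2 fold changes was 0.67 for Calr (95% interval 0.04 to 1.29, adjusted p = 0.992), 0.58 for Hspa5 (-0.24 to 1.40) and 0.99 for Sdf2l1 (0.00 to 1.97). The rise in small Pre-B cells was therefore not shown to differ from the effect in the large stages.

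Other lists held calls of both directions in small Pre-B cells, except the PERK and ATF4 branch, and 0 calls in either large stage. They covered the secretory pathway, that branch and, for comparison, chaperones of the cytosol and mitochondria. Their counts are to be read beside the 7.34% of all genes called higher and the 7.03% called lower at that stage, and no list was tested against the other genes. Of 34 tested genes for other ER folding and quality control 3 rose and 1 fell, among them Fkbp11 (3.08 ± 0.61, from a control mean of 17.7 normalized counts) and the ubiquitin-conjugating enzyme Ube2j1 (0.32 ± 0.08), which both rose. Of 29 genes for the oligosaccharyltransferase and N-glycan assembly 5 rose and 1 fell, led by the subunits Rpn1 (0.47 ± 0.08, adjusted p = 0.00372) and Ddost (0.37 ± 0.06, adjusted p = 0.00382), with the catalytic subunit Stt3b lower (-0.33 ± 0.08). Of 29 genes for signal recognition and membrane insertion 4 rose and 1 fell, and the signal peptidase catalytic subunit Sec11c was the one that fell (-0.36 ± 0.07, adjusted p = 0.00674), against Srp19 (0.35 ± 0.08) and Srp9 (0.31 ± 0.07) of the signal recognition particle. Of 39 vesicle coat and cargo genes of COPII and COPI transport 4 rose and 2 fell, with Copg2 (-0.48 ± 0.08), Sec24b (-0.38 ± 0.09) and Sec24d (0.51 ± 0.13) first. Of 13 genes of the PERK and ATF4 branch 3 rose: the kinase PERK itself (Eif2ak3, 0.38 ± 0.08), Eif2s1, which encodes its substrate eIF2 alpha (0.31 ± 0.08), and Chac1 (2.44 ± 0.68, from a control mean of 3.05 normalized counts). Of 27 chaperones of the cytosol and mitochondria 2 rose, the chaperonin subunits Tcp1 (0.21 ± 0.06) and Cct8 (0.21 ± 0.06), and 1 fell, Hspa4l (-0.64 ± 0.17). Median log2 fold changes of the 6 lists were 0.01, 0.15, 0.05, 0.06, 0.27 and 0.13, in that order. The shares of their tested genes above 0 were 55.9%, 75.9%, 58.6%, 64.1%, 76.9% and 77.8%, beside 75% of the 36 ER genes.

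Marker lists went in different directions between the genotypes in small Pre-B cells. The 12 dividing cell markers were all above 0 and 5 rose, with summed levels of 243, 273 and 285 reads per M reads in controls and 422, 295 and 387 in tet-LIN28B cells. Of 12 immature and mature B cell markers 10 rose and 1 fell, with sums of 1991, 2132 and 2646 in controls and 4345, 4470 and 4448 in tet-LIN28B cells. Of 8 tested plasma cell markers 1 rose (Mzb1, log2 fold change 1.01 ± 0.07, a chaperone of immunoglobulin assembly) and 3 fell (Sdc1, Prdm1 and Irf4), and their sums overlapped, at 1137 to 1217 in controls and 1133 to 1272 in tet-LIN28B cells. Jchain, another marker of the plasma cell list, was at means of 13.0 and 10.3 normalized counts in control and tet-LIN28B cells. Summed myeloid markers were at 47.2 to 85.5 and 41.1 to 41.7, erythroid markers at 24.3 to 28.0 and 17.9 to 20.5, and T and NK cell markers at no more than 1.37 in any library, all in reads per M reads. The erythroid sum was lower in tet-LIN28B cells although 4 of its 5 tested markers had fold changes above 0 (2 rose and 1 fell, median log2 fold change 0.88), and of 4 tested myeloid markers 0 were called. Of 3 tested Pro-B markers 1 rose (median 1.15), with sums of 2.66 to 4.62 and 4.61 to 6.44, and of 12 B precursor markers 1 rose and 3 fell (median 0.09). The part of dividing or more mature cells in the ER gene result was not tested.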

How the data were processed

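SMART-Seq v4 and Nextera XT kits gave 22 libraries of poly-A RNA. The submitters' notes name STAR 2.7.1 on mm10, RSEM 1.28 and DESeq2, and the authors deposited 1 table of normalized counts (a signal, counts divided by a size factor) per stage. Their tables of fold changes and p-values were not used. The sources used here name no annotation for the counting. Whole reads were recovered within 0.1 read for 99.995% to 100% of values and gave the library totals. Depth and intervals of reads cover counting error only.

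Genotypes were compared within a stage with limma 3.58.1 in R 4.3.3 (trend) on log2 values with a pseudocount of 1, keeping genes that reached 10 normalized counts in as many libraries as the smaller group, with Benjamini-Hochberg adjustment over all of them and calls at 0.05. This scale understates changes of low genes. All 36 genes passed this filter in each stage. Errors after ± in log2 values are SEs. The stage differences came from 1 model with the mouse as random block (correlation 0.278). Alternatives used edgeR 4.0.16 and DESeq2 1.42.0 on recovered reads, other pseudocounts, filters and scalings, a replicate block, and each library left out. The scripts were tested on simulated data.

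The 36 genes, the other lists and the tests were chosen with earlier results of these data known, so no test was made over a list. Values in every library are given for up to 10 called genes a stage by smallest adjusted p (the 3 smallest unadjusted p where fewer than 3 were called) and for Hspa5, Hsp90b1, Calr and Xbp1, and of other lists up to 3 called genes, other than 1 gene whose values are not reported here. Xbp1 falls under the second part of this rule in small Pre-B cells. Libraries of a stage are separate mice per the labels. The study names NextSeq and NovaSeq without assigning libraries, so the sequencer could not be checked. Exon lengths were those of GENCODE vM21 and promoter windows those of RefSeq, both on GRCm38, the build of mm10. Overlapping or near-identical genes may share reads.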

Additional observations from a re-analysis of the deposited data

Results flagged for a closer look

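In 9 of the 108 groups of 4 or 5 libraries examined over the 36 genes, 1 library lay apart from the rest by Dixon's criterion, which chance meets in about 1 in 20 groups. In large Pro-B controls, Pdia3 was at 14028 normalized counts in replicate 4 against 18022 to 18340 in the others, and Xbp1 at 2399 in replicate 1 against 3780 to 4074. In tet-LIN28B large Pro-B cells replicate 4 held 3 such values: Sel1l at 833 against 1844 to 2030, Ssr2 at 6778 against 2486 to 2955 and Spcs2 at 12221 against 4150 to 5356. Derl3 in replicate 3 of that group was at 38.4 against 77.8 to 88.9. In tet-LIN28B large Pre-B cells replicate 3 held the other 3: Xbp1 at 2973 against 2003 to 2134, Ssr4 at 480 against 431 to 438 and Ostc at 1732 against 1138 to 1214. Tet-LIN28B replicate 4 in large Pro-B and replicate 3 in large Pre-B cells were each the highest library of their stage for 19 of the 36 genes. The small Pre-B groups, with 3 libraries each, could not be examined by Dixon's criterion. At that stage too 1 library was often at the extreme. Tet-LIN28B replicate 1 was the highest of the small Pre-B libraries for 20 of the 36 genes, and control replicate 1 the lowest for 13. Without tet-LIN28B replicate 1, 7 of the 36 were called higher, beside 567 of all genes.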

How the results depend on the processing

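In small Pre-B cells the number of the 36 genes called higher was 10 in the test as reported, beside 1076 of all genes. Under the other pseudocounts, filters, scalings and tools it was 7 to 14, beside 829 to 1357 of all genes. With 1 library left out it was 3 to 13, beside 497 to 964. The number called lower, 1, was 0 with a pseudocount of 0.5, with no filter on low values, with the replicate block and with any library left out (0 to 0). With the replicate number as a block, 9 of the 36 were higher, beside 851 of all genes, and Spcs1 and Atf6 were lost. The numbers of the labels were not taken to pair the mice, since not every pair's correlation was over 0.1 in any stage: deviations of same-numbered libraries correlated at -0.19 to 0.43 in large Pro-B, -0.06 to 0.16 in large Pre-B and -0.11 to 0.02 in small Pre-B cells, and libraries correlated best with their own number for 2 of 4 numbers in large Pro-B cells (replicates 1 and 4) and for 0 of 3 at each other stage. Calr, Dnajb11 and Ssr2 were called under 15 of 15 alternatives, Hspa5 under 14, Pdia3, Sdf2l1 and Spcs2 under 13, Pdia4 under 7, Atf6 and Spcs1 under 6 and Xbp1 under 5, with unchanged direction. The 0 calls of both large stages and of the stage differences held in all alternatives run. There, uncalled values near 0 changed sign. In large Pre-B cells, rescaling to the same total, which moved the median of all genes from -0.02 to -0.12, gave -0.0695 for Hspa5, -0.051 for Calr and -0.0546 for Xbp1, and quantile normalization gave -0.0795 for Hspa5, -0.0645 for Hsp90b1, -0.0764 for Calr and -0.0906 for Xbp1. With 1 library left out, log2 fold changes ran from -0.15 to 0.19 for Hspa5, -0.0858 to 0.22 for Hsp90b1, -0.11 to 0.20 for Calr and -0.11 to 0.22 for Xbp1 in large Pre-B cells, and from -0.34 to 0.0472 for Hspa5, -0.24 to 0.0477 for Calr and -0.29 to 0.0432 for Xbp1 in large Pro-B cells. The cause was not tested. The 3 mice a group in small Pre-B cells limit every call there.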
